A study of Homo sapiens with 14 samples.

Results

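The genes described here encode the proteasome, the activators and the inhibitor that bind it, and the factors that assemble it. They were found by symbol, as every gene named PSMA to PSMG with a number, together with POMP and SHFM1, with antisense and pseudogene symbols left out. The rule found 51 of the 26171 genes in the K562 table and 50 of the 19196 in the SIGM5 table, where no row was matched to SHFM1. The members were sorted by known role into 8 alpha and 8 beta subunits of the core, 3 immunoproteasome subunits, 6 ATPases, 3 other subunits of the base, 9 lid subunits, 5 activators or inhibitors and 8 assembly factors. The remaining symbol, PSMC3IP, encodes a protein of meiotic recombination named for its binding to PSMC3. It is not a proteasome subunit, and it is counted among the 51 but has no class.

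Polyadenylated RNA was sequenced in 14 libraries, 7 groups of 2, after 24 h of treatment. SIGM5, an acute myeloid leukaemia line, received DMSO or 12.5 µM TETi76, which the series presents as an inhibitor of the TET dioxygenases, the enzymes that oxidise methylcytosine. The erythroleukaemia line K562 came as 2 clones. K01, TET2+/+, was given DMSO, 12.5 µM TETi76, 100 µM ascorbate, or 12.5 µM TETi76 with 100 µM ascorbate. K18, TET2-/-, was given DMSO alone. Each genotype was 1 clone, so genotype and clone cannot be told apart, and how TET2 was disrupted is not given in the sources used here. The labels number the replicates without saying whether they were separate cultures, so p-values measure only the spread between libraries, which may be technical.

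The proteasome degrades proteins tagged with ubiquitin. Its core is a barrel of stacked alpha and beta rings, and PSMB6, PSMB7 and PSMB5 carry the caspase-like, trypsin-like and chymotrypsin-like active sites inside it. In immune cells and after interferon, PSMB9, PSMB10 and PSMB8 take the places of those subunits. The regulatory particle that caps the core has a base, in which a ring of ATPases unfolds substrates, and a lid, which removes ubiquitin. Leukaemia and myeloma cells are known for their sensitivity to drugs that block the core, and cells in which it is blocked raise proteasome genes together through the transcription factor NFE2L1.

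SIGM5 libraries held 18893636 to 23639198 counts. The K562 table gives levels per gene length and per sequencing depth (FPKM) and no totals. From the size of its smallest values, the depth of its libraries relative to the first K01 DMSO library ran from 0.525, in the first TETi76 with ascorbate library, to 0.969. Within groups, libraries correlated at r of 0.9754 to 0.987 across genes in K562 and of 0.994 and 0.996 in SIGM5. TET2 itself was at 1.99 and 2.40 FPKM in K01 DMSO and at 2.95 and 3.31 FPKM in K18, so its transcript was not lower in the library pair labelled TET2-/- (limma, log2 difference 0.37, adjusted p = 0.314). Disruptions that spare the RNA would not show in such a level. All 10 K562 libraries held embryonic and fetal globins and GATA1 (117 to 196 FPKM), with MS4A1 at 0, though EPCAM, KRT19 and CD3D were also present (lowest 22.6, 58.6 and 11.3 FPKM). SIGM5 held MPO and LYZ, with globins at 0.

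In K01 cells with DMSO, 49 of the 51 members were detected. The testis-specific alpha subunit PSMA8 was listed at 0 in all 10 K562 libraries. The thymus-specific beta subunit PSMB11 was listed at 0 in 9 and at 0.0753 FPKM in the remaining one. The 14 constitutive core subunits had a median level of 171 FPKM, although they enter the barrel in equal numbers. They ran from PSMB2, at 54.5 and 50.8 FPKM, to PSMB1, at 326 and 318 FPKM, a 6.12-fold span. The ATPases, which also form a ring of 1 copy each, spanned 1.87-fold, from PSMC6 at a mean of 62.0 FPKM to PSMC3 at 116 FPKM. Median levels were 131.8 FPKM in the rest of the base, 111 FPKM in the lid, 52.7 FPKM in the activators and inhibitor and 52.7 FPKM among assembly factors. Immunoproteasome subunits were the lowest class, with PSMB10 at 19.1 and 27.5 FPKM, PSMB8 at 2.26 and 0.896 FPKM and PSMB9 at 0.614 and 0.645 FPKM.

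The first comparison asked what TETi76 did to these genes in TET2+/+ K562 cells. Of the core subunits tested 7 of 14 rose, as did 4 of 9 in the base and 1 of 9 in the lid, no immunoproteasome subunit was called, and 2 of 8 assembly factors fell. With limma on log2(FPKM + 1) and Benjamini-Hochberg adjustment over all 12541 genes tested, 13 of 49 tested members rose and 2 fell at an adjusted p below 0.05. That is 26.5% higher and 4.08% lower, where over all genes tested 9.6% were called higher and 13.7% lower (23.3% in either direction). The median change of the tested members was 0.15 on the log2 scale, against -0.01 for all genes. In the same libraries the summed level of 4 stromal or epithelial markers went from 106 and 108 FPKM to 209 and 215 FPKM, almost all of it EPCAM and KRT19, with COL1A1 and COL1A2 below 0.7 FPKM, and 8 myelomonocytic markers summed to 45.0 and 53.0 FPKM with DMSO and 65.4 and 74.2 FPKM with TETi76. The erythroid sum went from 8378 and 9646 FPKM to 7954 and 8296 FPKM. The lymphoid sum went from 13.96 and 14.86 FPKM to 18.9 and 21.7 FPKM, and the groups did not overlap for either sum. The part of these marker lists in the members' change was not tested. In bulk RNA, fewer cells of a type and less RNA per cell cannot be told apart.

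**Figure D1:**
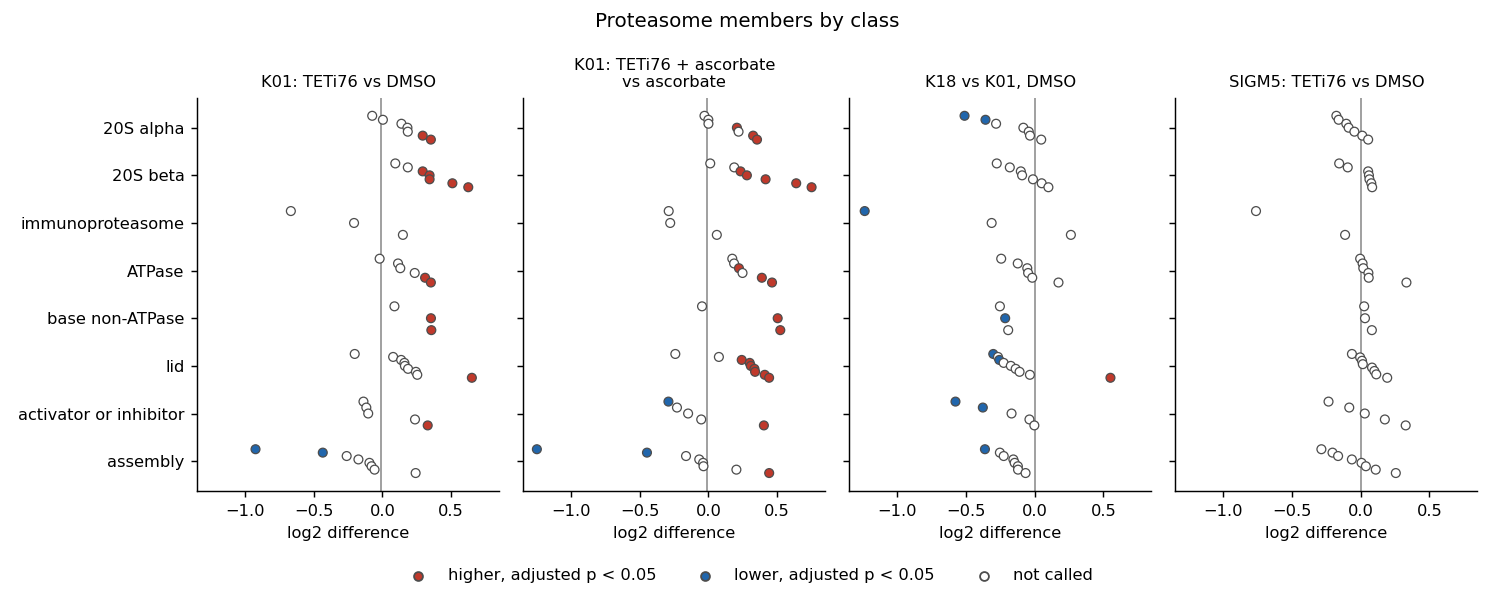
Log2 difference of each tested member, by class (rows), in 4 comparisons (panels). Each point is 1 gene, filled where its adjusted p is below 0.05, the grey line is the median of all genes tested, and PSMC3IP is not drawn. In K01 the core, ATPase, base and lid points lie mostly to the right of the line under TETi76, while PSMG4, in the assembly row, is the lowest point in both TETi76 panels of K01. In SIGM5 no point is filled.

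The beta subunits had the most calls. Of the 7 tested, 5 rose and none fell, with a median change of 0.34. With 1 library left out, 3 were called without either DMSO library and 2 without the first TETi76 library. PSMB6, the caspase-like subunit, was at 113 and 125 FPKM with DMSO and at 198 and 171 FPKM with TETi76. Both treated libraries lay above both controls, with a log2 change of 0.62 (SE 0.14, adjusted p = 0.0101), or 1.54-fold. Its call was lost without the first DMSO library (adjusted p = 0.0696) or the first TETi76 library (adjusted p = 0.0715).

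PSMB7, the trypsin-like subunit, went from 205 and 209 FPKM to 289 and 301 FPKM. It rose by 0.51 on the log2 scale (SE 0.07, adjusted p = 0.000988), and it stayed called in every alternative run. The third active subunit, PSMB5, was at 141 and 144 FPKM with DMSO and 156 and 169 FPKM with TETi76, a difference of 0.18 that did not pass the test (adjusted p = 0.145). PSMB5 was called higher in limma after quantile normalization (0.28, adjusted p = 0.0399). PSMB1, PSMB2 and PSMB4, structural beta subunits, rose by 0.29, 0.34 and 0.34. PSMB3 differed by 0.09 and was not called.

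Among the 7 alpha subunits tested, which form the outer rings and the gate of the barrel, 2 rose. PSMA1 went from 191 and 181 FPKM to 237 and 238 FPKM, a log2 change of 0.35 (adjusted p = 0.00719). PSMA7 went from 220 and 234 FPKM to 286 and 271 FPKM, a change of 0.29 (adjusted p = 0.0117). The other 5 lay between -0.07 and 0.18, with PSMA2 at 0.00. Without the second DMSO library the call of PSMA1 was lost, and that of PSMA7 was lost without the first DMSO or the first TETi76 library.

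In the base, 2 of the 6 ATPases and 2 of the 3 other subunits rose. PSMC1 was at 81.0 and 85.5 FPKM with DMSO and 103 and 110 FPKM with TETi76, a change of 0.35. PSMC5 went from 106 and 101 FPKM to 125 and 134 FPKM, a change of 0.31. Both ATPase calls were lost without the second TETi76 library. That of PSMC1 was also lost without the first DMSO library, and that of PSMC5 without the second DMSO library.

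PSMD2, a large scaffold of the base to which ubiquitin-like domains dock, was at 133 and 131 FPKM with DMSO and at 172 and 165 FPKM with TETi76. Its log2 change was 0.35 (SE 0.05, adjusted p = 0.00199). PSMD4, a ubiquitin receptor, went from 156 and 149 FPKM to 199.8 and 191 FPKM, a change of 0.36 (SE 0.06, adjusted p = 0.00243). The groups did not overlap for either gene, and both kept their calls in every alternative. PSMD1, the other large scaffold, was at 60.3 and 63.2 FPKM and at 71.9 and 59.9 FPKM, so its groups overlapped.

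In the lid, 8 of 9 subunits had a positive change but only SHFM1 passed. SHFM1, also named SEM1, encodes a very small acidic subunit that also binds the recombination protein BRCA2. It was at 149.6 and 159 FPKM with DMSO and at 236 and 249.6 FPKM with TETi76, and its rise of 0.65 (SE 0.10, adjusted p = 0.00171) was the highest among the members. The deubiquitinase PSMD14 was at 118 and 126 FPKM and then at 138 and 153 FPKM, a difference of 0.25 that missed the threshold (adjusted p = 0.0639). PSMD7, its inactive partner, was the lid subunit with a negative difference, -0.20, and was not called. The class count depended on the scaling, with 3 of 9 called after median-ratio scaling and 6 of 9 after quantile normalization.

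Of the 5 activators and inhibitors, PSME4 alone was called. PSME4 encodes PA200, a large nuclear activator, and was at 26.7 and 29.9 FPKM with DMSO and 35.4 and 36.2 FPKM with TETi76 (log2 change 0.33, adjusted p = 0.0419). The call was lost in each of the 4 fits that left out 1 library, where the change ran from 0.25 to 0.41. It was also lost in limma with no filter on low values (adjusted p = 0.0593) and with only the groups compared fitted (adjusted p = 0.0521). PSME1 and PSME2, the interferon-inducible partners of the PA28 cap, differed in opposite directions, by -0.14 and 0.24, and neither was called.

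The assembly factors had no call in the upward direction, and 7 of 8 had a negative difference, with a median of -0.13. PSMG4, which with PSMG3 chaperones the alpha ring, was at 42.2 and 52.7 FPKM with DMSO and at 24.0 and 24.8 FPKM with TETi76. It fell by 0.92 on the log2 scale (SE 0.11, adjusted p = 0.000568), to 0.528 of its control level, and it was called in every alternative. Its partner PSMG3 was at 50.7 and 65.1 FPKM and then at 61.2 and 48.3 FPKM, and these groups overlapped. PSMG2, of the PSMG1 and PSMG2 chaperone pair, went from 66.2 and 76.9 FPKM to 51.9 and 53.3 FPKM, a change of -0.43 (SE 0.11, adjusted p = 0.0243). That call was lost without the second DMSO library or either TETi76 library, where the change ran from -0.45 to -0.33. It was also lost in limma after quantile normalization (adjusted p = 0.0773). POMP, which escorts beta subunits into the half-built core, was the factor with a positive difference, from 90.5 and 92.9 FPKM to 112 and 106 FPKM (0.24, adjusted p = 0.0582). POMP was called higher after median-ratio scaling (adjusted p = 0.0418), after quantile normalization (adjusted p = 0.0121) and with only the groups compared fitted (adjusted p = 0.0468).

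**Figure D2:**
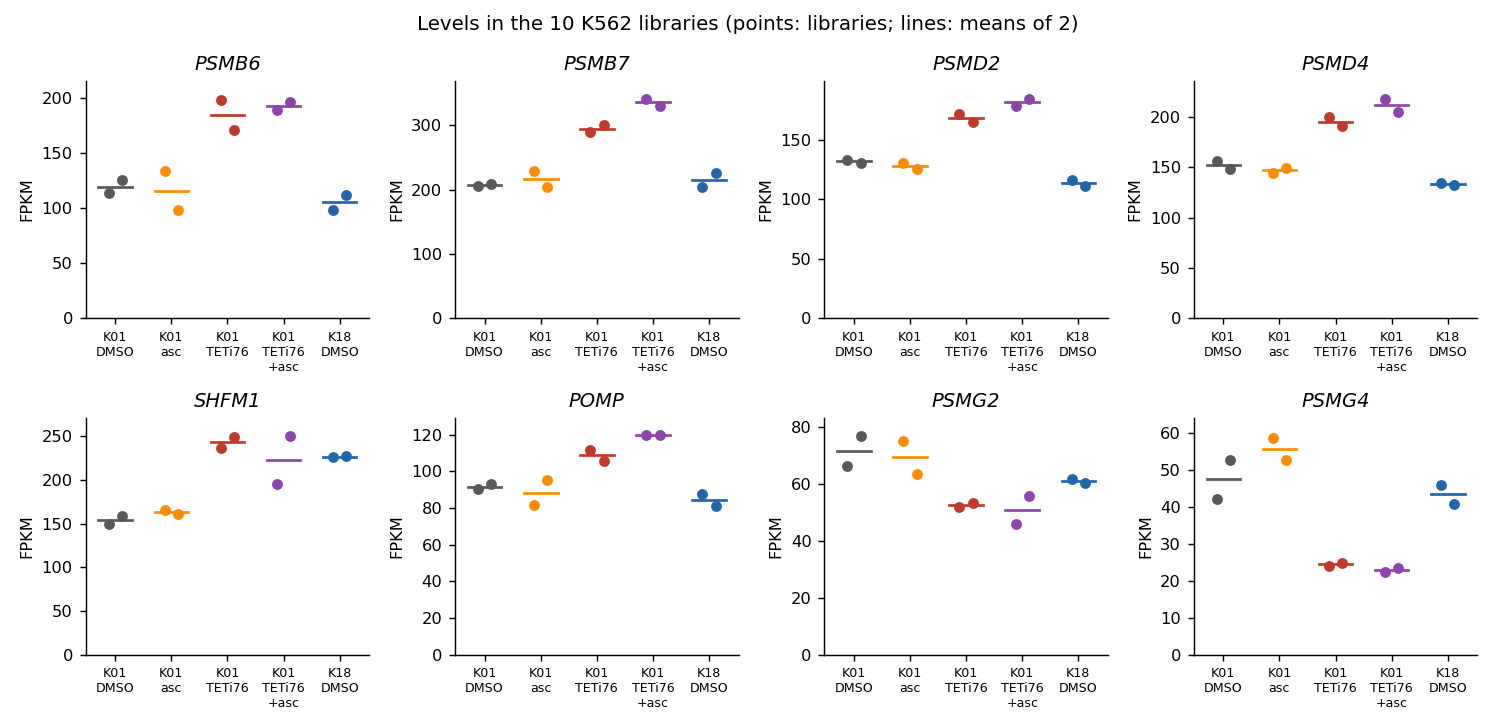
FPKM (vertical axes, from 0) of 8 members in the 10 K562 libraries. Points are libraries, lines are means of 2, and asc is ascorbate. PSMB6, PSMB7, PSMD2 and PSMD4 are higher in both groups that received TETi76, PSMG4 is lower in both, and SHFM1 is also higher in K18.

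Summed levels of the core and of the assembly factors moved in opposite directions. The 14 constitutive core subunits with PSMA8 and PSMB11 summed to 2408 and 2460 FPKM with DMSO and to 2900.4 and 2942 FPKM with TETi76. The lid went from 959 and 999.9 FPKM to 1149 and 1141 FPKM. The assembly factors went the other way, from 516 and 565 FPKM to 487 and 479.9 FPKM. All members except PSMC3IP together made up a mean of 0.993% of the FPKM sum without short RNA in K01 DMSO and 1.18% with TETi76. These sums are weighted by the most abundant genes and carry no test.

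**Figure D3:**
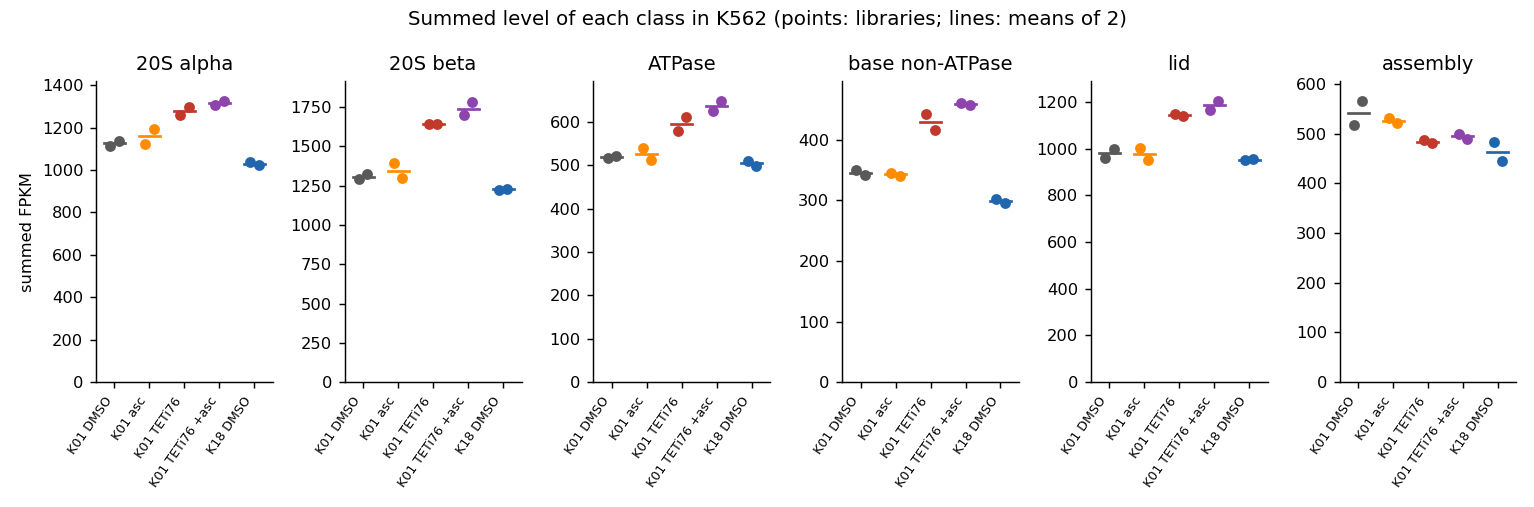
Summed FPKM of 6 classes (panels, axes from 0) in the 10 K562 libraries, with points for libraries and lines for means of 2; asc is ascorbate. The beta subunits sum to 1643 and 1644 FPKM in the TETi76 libraries and to 1293 and 1322 FPKM in K01 DMSO, while the assembly panel is lower in both TETi76 groups.

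Promoter windows of the members were searched for a motif that regulators of proteasome genes are known to read. RefSeq windows of 300 bases (assembly GRCh38.p14) were given for 44 of the 50 proteasome genes, and none was given for PSMA7, PSMB1, PSMB6, PSMB7, PSMD4 and PSMG3. The core of the antioxidant response element, TGACNNNGC on either strand, which NFE2L1 and NFE2L2 bind with a small MAF partner, was found in 13 of the 44 (29.5%). The same motif was in 4687 of 35116 windows of that length in the whole RefSeq set (13.3%). Among windows of genes tested in K01 it was in 1945 of 13117 (14.8%). Each member counts by 1 window, while these sets count every window of a gene, so the shares are not in the same unit. Of the members called higher under TETi76 in K01, 1 of the 8 with a window held it (PSME4), as did 1 of 2 called lower (PSMG2) and 11 of 32 not called. The match is a description of the letters and not a binding site.

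The 250 bases before the gene start are shown for 5 called members, 3 that rose and 2 that fell, to set the windows with and without the motif beside each other. Capitals mark the motif, and the sequences run 5′ to 3′ on the gene's strand.
PSMD2 (chr3:184298991-184299240, plus strand): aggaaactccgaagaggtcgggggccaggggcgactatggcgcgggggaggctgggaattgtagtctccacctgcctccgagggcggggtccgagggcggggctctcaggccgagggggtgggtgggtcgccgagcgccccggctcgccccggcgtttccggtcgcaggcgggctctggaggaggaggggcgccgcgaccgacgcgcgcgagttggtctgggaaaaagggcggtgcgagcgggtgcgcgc
SHFM1 (chr7:96709847-96710096, minus strand): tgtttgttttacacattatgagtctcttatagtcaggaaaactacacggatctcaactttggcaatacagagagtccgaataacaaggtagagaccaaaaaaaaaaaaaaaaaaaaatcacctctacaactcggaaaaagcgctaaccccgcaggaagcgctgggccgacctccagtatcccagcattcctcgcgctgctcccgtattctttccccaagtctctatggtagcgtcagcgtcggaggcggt
PSME4 (chr2:53970994-53971243, minus strand): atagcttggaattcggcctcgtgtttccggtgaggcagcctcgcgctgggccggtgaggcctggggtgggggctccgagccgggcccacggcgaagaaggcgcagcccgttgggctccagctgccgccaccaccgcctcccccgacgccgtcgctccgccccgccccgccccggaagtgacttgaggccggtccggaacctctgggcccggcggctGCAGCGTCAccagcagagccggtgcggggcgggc
PSMG2 (chr18:12658488-12658737, plus strand): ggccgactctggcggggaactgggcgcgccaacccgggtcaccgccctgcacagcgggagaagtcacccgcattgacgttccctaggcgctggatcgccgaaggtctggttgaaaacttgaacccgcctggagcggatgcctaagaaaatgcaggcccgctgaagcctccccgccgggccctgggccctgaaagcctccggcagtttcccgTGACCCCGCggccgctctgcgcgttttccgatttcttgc
PSMG4 (chr6:3258697-3258946, plus strand): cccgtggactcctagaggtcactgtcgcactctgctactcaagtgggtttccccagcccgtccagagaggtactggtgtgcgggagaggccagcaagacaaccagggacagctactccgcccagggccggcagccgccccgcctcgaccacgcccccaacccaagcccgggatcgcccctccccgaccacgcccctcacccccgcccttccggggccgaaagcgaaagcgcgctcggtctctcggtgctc
The motif began 34 bases before the start of PSME4, on the opposite strand, and 39 bases before that of PSMG2. The windows of PSMD2, SHFM1 and PSMG4, which kept their calls in every alternative, held no match.

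The second comparison of TETi76 had ascorbate, a cofactor of the TET enzymes, in both arms and used none of the libraries of the first, although the same fit supplied the spread. Here 22 of 49 members rose and 3 fell (44.9% and 6.12%), where 12.8% of all genes were called higher and 17.8% lower (30.7% in all). All 15 members called without ascorbate were called in the same direction with it, 100.0% of that list, and made up 15 of the 25 called here. Over all genes, 70.0% of the first list and 53.2% of the second were shared in direction and 27 genes were called in opposite directions. Marker sums moved as well, without overlap of the groups. The stromal or epithelial sum went from 109 and 129 FPKM to 217 and 229.9 FPKM and the erythroid sum from 9750 and 10156 FPKM to 6779 and 7012 FPKM. The lymphoid sum went from 12.3 and 21.3 FPKM to 26.1 and 39.1 FPKM and the myelomonocytic sum from 44.9 and 52.2 FPKM to 59.0 and 65.4 FPKM. The part of these markers in the members' change was not tested.

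PSMB6 was at 133 and 97.9 FPKM with ascorbate and 189 and 197 FPKM with both agents, a change of 0.75 (SE 0.14, adjusted p = 0.00304). PSMB7 went from 228 and 204 FPKM to 341 and 331 FPKM, a change of 0.64. PSMD4 went from 144 and 149.7 FPKM to 218 and 205 FPKM, a change of 0.52 (adjusted p = 0.000196). The treated libraries of these 3 subunits lay above every library that had not received TETi76.

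Among lid subunits 7 of 9 were called higher, where 1 of 9 was without ascorbate, though the test of that difference itself, given later, called none. PSMD12, a scaffold of the lid, went from 64.9 and 65.9 FPKM to 86.4 and 88.0 FPKM (0.41, adjusted p = 0.00217). Without the second ascorbate library 2 of 9 lid subunits were called, and without the first library with both agents 4 were. Of the ATPases 3 of 6 rose, PSMC4 by 0.46 and PSMC1 by 0.39, and 1 was called without the first ascorbate library. Of the beta subunits 5 of 7 rose, and 3 without the first ascorbate library or the second library with both agents. POMP, at 81.5 and 95.1 FPKM with ascorbate and 119.8 and 119.9 FPKM with both, rose by 0.44 (adjusted p = 0.00324).

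PSMG4 fell from 58.6 and 52.6 FPKM to 22.3 and 23.4 FPKM, a change of -1.25 (SE 0.11, adjusted p = 6.8e-05). PSMG2 fell by 0.45, from 75.1 and 63.5 FPKM to 45.8 and 55.5 FPKM. PSME3, the nuclear PA28 activator, fell by 0.29, from 83.8 and 84.1 FPKM to 72.0 and 65.1 FPKM. The calls of PSMG2 and PSME3 were each lost in 2 of the fits without 1 library and after quantile normalization.

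Whether ascorbate altered the response was tested directly. The interaction of TETi76 and ascorbate was called for 0 of 49 members (limma, 4 at an unadjusted p below 0.05), where 0.63% of all genes were called. Its lowest adjusted p among members was that of PSME2, 0.134 for a difference of -0.47. PSME2 was at 83.0 and 86.9 FPKM with DMSO, 102 and 98.2 FPKM with TETi76, 90.5 and 94.8 FPKM with ascorbate, and 72.5 and 85.9 FPKM with both. Ascorbate against DMSO was called for 0 members (limma, 3 at an unadjusted p below 0.05), with 0.478% of all genes called, and ascorbate added to TETi76 for 0 (6 unadjusted), with 0.734% of all genes called (0.247% higher and 0.486% lower). Over all 12541 genes tested the unadjusted counts were 1714 for the interaction, 1502 for ascorbate and 1833 for ascorbate added to TETi76. For PSMB7 the 95% interval of the ascorbate difference ran from -0.10 to 0.21, so its values are compatible with any difference in that range. With 2 libraries a group, that interval holds for PSMB7 only and sets no limit for the other members.

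None of the 3 immunoproteasome subunits was called under TETi76 in K01. PSMB10 was at 19.1 and 27.5 FPKM with DMSO and 19.9 and 19.7 FPKM with TETi76 (log2 difference -0.21, adjusted p = 0.334). It was 0.045 without the second DMSO library, and -0.46 and called without the first (adjusted p = 0.0262). PSMB8 was at 0.578 and 0.558 FPKM under TETi76, both below the DMSO libraries, and was not called (-0.66, adjusted p = 0.18). PSMB9 was at 1.25 and 0.452 FPKM under TETi76, on both sides of its DMSO values.

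Set beside the constitutive subunit it replaces, PSMB10 was 9.32% and 13.1% of PSMB7 with DMSO, 11.3% and 12.3% with ascorbate and 13.2% and 12.6% in K18. It was 6.87% and 6.53% of PSMB7 with TETi76 and 6.05% and 6.32% with both agents, so the 4 TETi76 libraries lay below the other 6. PSMB7 was called higher in both comparisons and PSMB10 in neither. PSMB8 reached at most 1.60% of PSMB5 and PSMB9 at most 1.56% of PSMB6. Both K18 libraries lay below the other 8 for PSMB8, at 0% and 0.0822% of PSMB5, and the groups of PSMB9 overlapped.

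**Figure D4:**
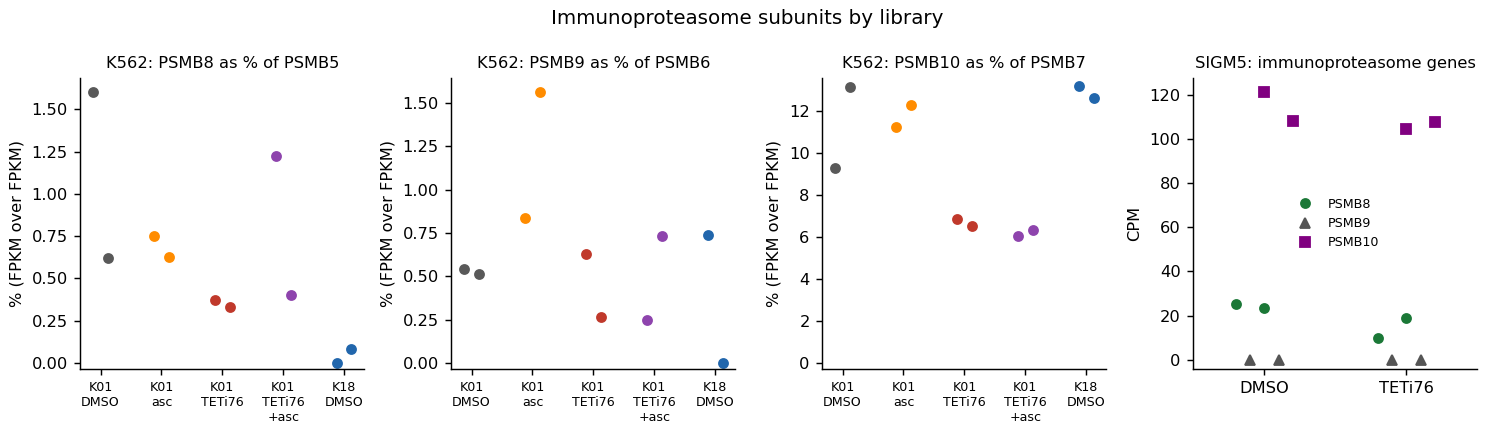
The first 3 panels give each immunoproteasome subunit as a percent of the constitutive subunit it replaces, from FPKM, in the 10 K562 libraries (points; asc is ascorbate). The fourth gives CPM, counts scaled to library size, in the 4 SIGM5 libraries, where heights of different genes cannot be compared because CPM is not scaled by length. PSMB10 is at 6.05% to 6.87% of PSMB7 in the 4 TETi76 libraries and at 9.32% to 13.2% in the other 6.

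In the TET2-/- clone K18, compared with K01 in DMSO, members were mostly lower. With the same limma fit, 9 of 49 were lower and 1 was higher, 18.4% and 2.04%, where 8.21% of all genes were lower and 6.86% higher (15.1% in all). The difference was negative for 42 of 49, with a median of -0.14, against 0.00 for all genes. As a share the members differed little. Without PSMC3IP they made up a mean of 0.975% of the FPKM sum without short RNA in K18 and 0.993% in K01 DMSO. That FPKM sum was itself lower in K18, at a mean of 487413 against 515279. This contrast shares the K01 DMSO libraries with TETi76 against DMSO, so values of the 2 are given side by side and not correlated. The erythroid marker sum was 4494 and 4700.1 FPKM in K18 and 8378 and 9646 FPKM in K01. The stromal or epithelial sum was 148 and 149 FPKM against 106 and 108 FPKM, and the myelomonocytic sum 57.1 and 65.0 FPKM against 45.0 and 53.0 FPKM. Their part in these differences was not tested.

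PSMA2, an alpha subunit, was at 96.2 and 95.3 FPKM in K18 and 135 and 138 FPKM in K01, a difference of -0.51 (SE 0.06, adjusted p = 0.000731), and it differed by 0.00 under TETi76. PSME4 was at 18.4 and 18.9 FPKM in K18 against 26.7 and 29.9 FPKM, a difference of -0.57 (adjusted p = 0.0052), where TETi76 raised it. PSMB8 was listed at 0 and at 0.117 FPKM in K18. Its difference of -1.23 was called (adjusted p = 0.0342), but the call was lost without the first K01 library or either K18 library.

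The other members called lower were PSMA5, PSMD12, PSMD2, PSMD8, PSMF1 and PSMG1, by 0.21 to 0.38 on the log2 scale. The call of PSMD2, the 1 call in the base, was lost without any 1 of the 4 libraries, and activator calls went from 2 to 1 in each alternative but a smaller pseudocount. No ATPase and no constitutive beta subunit was among them. PSMB6 and PSMB7 were at 98.5 and 112 FPKM and at 204 and 226 FPKM in K18, with differences of -0.18 and 0.05 that were not called. SHFM1 was the 1 member called higher, at 226 and 227 FPKM against 149.6 and 159 FPKM (0.55, SE 0.10, adjusted p = 0.00585). Of the members called in both contrasts, SHFM1 was thus higher under TETi76 and in K18, while PSMD2 and PSME4 were higher under TETi76 and lower in K18.

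In SIGM5, TETi76 changed no member past the threshold. With edgeR's quasi-likelihood test, 0 of 47 tested members were called, and 5 had an unadjusted p below 0.05. Over all 11340 genes 4.13% were called (2.58% higher and 1.54% lower) and 16.7% had an unadjusted p below 0.05. DESeq2 also called 0 members. Levels there are counts scaled to library size (CPM). PSMB6 was at 123 and 109 CPM with DMSO and 119.5 and 127 CPM with TETi76 (log2 difference 0.08, 95% interval -0.14 to 0.31). PSMB7 was at 118 CPM in both DMSO libraries and at 99.9 and 112 CPM (-0.16, 95% interval -0.38 to 0.07), so the 0.51 seen in K01 lay outside its interval.

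Leaving PSMC3IP aside, the members closest to a call were PSME4 and PSMC4. PSMC4, an ATPase, was at 166 and 162 CPM with DMSO and at 190.1 and 223 CPM with TETi76 (0.33, adjusted p = 0.0912). PSME4 was at 161 and 153 CPM and at 204 and 191 CPM (0.33, adjusted p = 0.0852). Both were higher in each treated library than in either control. PSMC3IP, which is no proteasome gene, was at 11.7 and 13.7 CPM and at 7.03 and 10.1 CPM (-0.57, adjusted p = 0.0863).

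PSMB8 was at 25.3 and 23.4 CPM with DMSO and at 9.91 and 18.9 CPM with TETi76. The groups did not overlap, and the log2 difference was -0.76 (SE 0.28, 95% interval -1.43 to -0.09, adjusted p = 0.24). Some other settings called it and others did not. With no filter on low counts the edgeR adjusted p was 4.86e-05 for a difference of -0.76. DESeq2 did not call PSMB8, nor did edgeR scaled by library totals only or with a filter of 1 CPM. The difference was -0.70 without the first DMSO library, -0.82 without the second DMSO library and -1.29 without the second TETi76 library. PSMB10 was at 121 and 108 CPM with DMSO and 104 and 108 CPM with TETi76, and was not called.

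PSMB9 had 0 counts in all 4 SIGM5 libraries, which allows at most 0.127 to 0.159 CPM per library if 3 counts are taken as the limit of a count of 0. PSMB8 and PSMB9 flank TAP1 in the class II region of the major histocompatibility complex, in the RefSeq gene order. TAP1 was at 1.40 to 2.17 CPM and TAPBP at 0.605 to 0.805 CPM in the same libraries, while B2M, on another chromosome, was at 773 to 1106 CPM. HLA-B, of the same complex, was at 390 to 698 CPM. How reads of this complex were assigned is not given in the sources used here. The part of that step in the 0 of PSMB9 and in the counts of PSMB8 was not tested. The 0 of PSMB9 and its limit thus describe the counted reads and not expression.

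The TETi76 effects of the 2 lines were compared gene by gene over the 9743 genes tested in both. The lines were fitted apart, in different units, so only the log2 effects and their errors were combined. The difference was called for 4 of 47 members, with the K01 effect more positive for 3 and more negative for 1. Over all genes 4.91% and 7.12% were called in these directions. PSMB7 differed by 0.66 (SE 0.13, adjusted p = 0.000639), PSMB6 by 0.54 (SE 0.17, adjusted p = 0.046) and PSME2 by 0.47 (SE 0.15, adjusted p = 0.0473). PSMG4 differed by -0.64 (SE 0.18, adjusted p = 0.018). In SIGM5, PSMG4 was at 30.0 and 24.1 CPM with DMSO and 23.2 and 21.2 CPM with TETi76, a difference of -0.28 that was not called. With 1 library left out, the PSMB6 call was lost in 7 of 8 fits (adjusted p from 0.0524 to 0.202), those of PSME2 and PSMG4 in 5 of 8 each, and that of PSMB7 in 1, without the first SIGM5 TETi76 library (adjusted p = 0.0603). For the remaining 43 members a difference between lines did not pass the test.

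**Figure D5:**
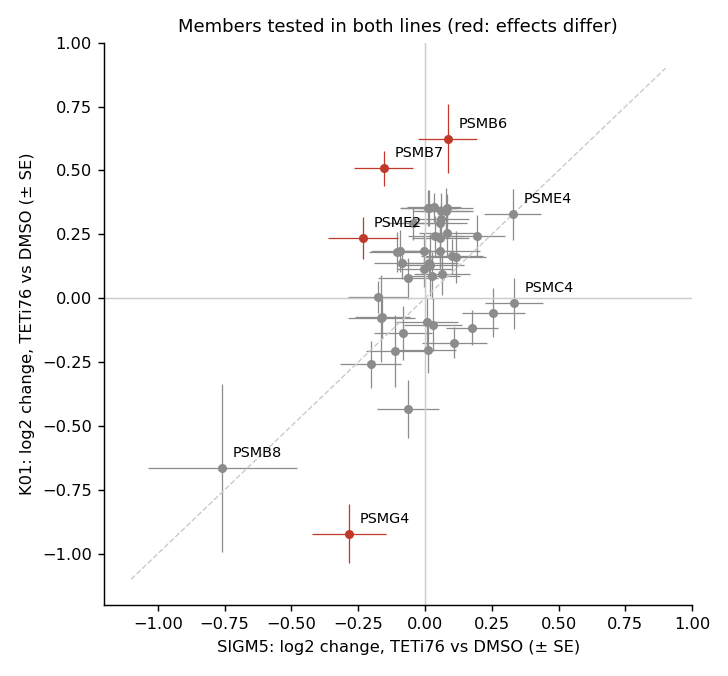
Log2 change under TETi76 in SIGM5 (horizontal) and in K01 (vertical) with bars of 1 SE, for the members tested in both lines except PSMC3IP. Red marks the 4 members whose effects differed between lines, and the dashed line is equal effects. PSMB6 and PSMB7 lie above it at 0.62 and 0.51 in K01 against 0.08 and -0.16 in SIGM5.

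Other genes of the pathway were counted from lists made by role. Among 11 proteins that associate with the proteasome, 4 rose and 1 fell under TETi76 in K01, with a median of 0.33 against -0.01 for all genes, where 9.6% of all genes were called higher and 13.7% lower. ADRM1, a ubiquitin receptor of the base, went from 81.2 and 81.4 FPKM to 128 and 139 FPKM (0.71, adjusted p = 0.000128). ZFAND2A, which is induced by arsenite and other agents that damage proteins, went from 6.64 and 11.4 FPKM to 25.2 and 29.8 FPKM (1.54), and with ascorbate in both arms it went from 4.81 and 10.5 FPKM to 65.8 and 66.2 FPKM (3.03). ZFAND5 rose by 0.58 and TXNL1 by 0.39, and UCHL5, a deubiquitinase that ADRM1 holds at the base, fell by 0.38. ZFAND5 was also the 1 gene of this list called in SIGM5, from 85.6 and 86.3 CPM to 112 and 124 CPM (0.46, edgeR adjusted p = 0.0173). The interaction of TETi76 and ascorbate was called for 0 of the 11 genes, where 0.63% of all genes were called. A difference between the ZFAND2A changes without and with ascorbate thus did not pass the test.

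Of 10 regulators of proteasome genes, 1 rose and 1 fell in K01, near the shares over all genes, with a median of 0.13. MAFK, a small MAF partner of the NFE2 factors, rose by 1.04 and STAT3 fell by 0.65. NFE2L1 and NFE2L2 differed by -0.14 and -0.20 and were not called. With ascorbate in both arms 5 rose, where 12.8% of all genes did, among them NFE2L1 by 0.37 (adjusted p = 0.0133), MAFG by 0.51 and VCP, the segregase that acts before the proteasome, by 0.41. NFE2L1 was at 32.0 and 37.0 FPKM with ascorbate and 44.6 and 45.1 FPKM with both agents. With DMSO it was at 44.0 and 46.7 FPKM, so with both agents it was not above its DMSO level. The test of that difference itself, the interaction of TETi76 and ascorbate, called 0 of the 10 regulators, where 0.63% of all genes were called. In SIGM5 0 of 10 were called.

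The counts of the remaining lists are small and are set beside the shares over all genes, 9.6% higher and 13.7% lower in K01 and 2.58% higher and 1.54% lower in SIGM5. Of 7 shuttle receptors that deliver ubiquitin chains, 1 rose and 1 fell in K01, with a list median of 0.16. RAD23B was the one that rose, by 0.22. Of 6 ubiquitin and E1 genes tested, 2 rose and 1 fell, with changes of 0.17 for UBB and -0.35 for UBA6. Of the 9 subunits of the COP9 signalosome, a complex built like the lid, 0 rose and 2 fell, GPS1 by 0.63 and COPS2 by 0.41. In class I antigen processing 1 of 10 tested genes changed in K01, TAPBP, which fell by 0.46. In SIGM5, 3 of 12 fell, among them HLA-B by 0.77 and HLA-C by 0.40, and the shuttle, ubiquitin and COP9 lists had 0 calls there. With ascorbate in both arms, where 12.8% of all genes were higher and 17.8% lower, the proteasome-associated list had 6 higher and 1 lower, the shuttles 3 and 1, the ubiquitin list 1 and 0, class I 2 and 2, and COP9 1 and 2. The interaction of TETi76 and ascorbate was called for 0 genes in each of these lists, where 0.63% of all genes were called. In K18, where 6.86% of all genes were higher and 8.21% lower, UCHL5 of the associated list differed by -0.50, TAP1 and B2M of class I by -0.79 and -0.46, 1 ubiquitin gene was higher and 3 lower, COP9 had 1 higher and 1 lower, and the shuttles and regulators had 0 calls.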

How the data were processed

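Poly(A) RNA libraries of 2 human cell lines were used as deposited by the authors. Per the submitters' processing notes, the build was hg19 and the tools were STAR, edgeR 3.24.3 and limma 3.38.3, with no roles given. The FPKM quantifier and strand setting are not given in the sources used here. In the deposited tables SIGM5 holds raw read counts per gene, whole numbers, and K562 holds FPKM, read from the values although the matrix is named as counts.

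The quasi-likelihood test of edgeR 4.0.16, after TMM and filterByExpr, was run on SIGM5. For K562, FPKM plus a pseudocount of 1 was taken to log2 and given to limma 3.58.1, with a trended and robust prior and all 5 groups fitted together, over genes with at least 1 FPKM in at least 2 libraries. There, 2245 short-RNA entries and 26 entries without a gene name were left out. Fold changes on that scale understate changes of low genes. CPM was computed with TMM scaling. P-values were two-sided and adjusted by Benjamini-Hochberg over all genes tested, with 0.05 as the threshold. Intervals and the limit of a count of 0 cover the spread between libraries or counting error only. Scripts were tested on simulated data.

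Groups came from the labels. The members, the lists and the rule for named genes were chosen with earlier results of these data known. That rule took the immunoproteasome subunits, the subunits they replace, POMP, the 2 called members per class and direction with the largest change in K01, and up to 3 called per direction elsewhere. Genes named beyond it were chosen after their values were seen. Some genes counted in the lists are not reported here by name. In GENCODE v29, 12 members have at least 1 named pseudogene, 32 in all and 13 for PSMC1, so their reads may be shared. Without strand, reads of PSMA3-AS1 (5.21 to 11.4 FPKM), PSMD5-AS1 (11.6 to 24.7 FPKM) and 3 lower antisense genes cannot be told apart from their partners'. Alternatives were other scalings, pseudocounts, filters and tools, a replicate term, and leaving out each library.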

Additional observations from a re-analysis of the deposited data

Results flagged for a closer look

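The log2 effect of TETi76 differed between K01 and SIGM5 for 4 members, by the test of the difference itself with adjustment over 9743 genes. The K01 effect was called more positive for 6.38% of members tested and more negative for 2.13%, against 4.91% and 7.12% of all genes. PSMB6 differed by 0.54 (0.62 in K01, 0.08 in SIGM5), PSMB7 by 0.66 (0.51 and -0.16), PSME2 by 0.47 (0.24 and -0.23) and PSMG4 by -0.64 (-0.92 and -0.28). With 1 library left out, the calls of PSMB6, PSME2 and PSMG4 were lost in 7, 5 and 5 of 8 fits and that of PSMB7 in 1. For PSME2 the effects had opposite signs and were called in neither line. Of the 2 SIGM5 TETi76 libraries, PSME2 was at 116 CPM in the first and 159 CPM in the second, with 158 and 166 CPM in DMSO. Line, unit and depth changed together in this comparison and cannot be told apart.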

How the results depend on the processing

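With 2 libraries a group, single libraries moved the counts, of members and of all genes alike. With 1 library left out, the share of all genes called fell in every K562 comparison and went both ways in SIGM5 and between lines. After quantile normalization it went from 23.3% to 22.4% under TETi76 in K01 and from 15.1% to 13.3% for K18. In SIGM5 it was 4.13%, 4.81% with no filter on low counts, 3.92% with the replicate block and 11.4% with the block crossed. Members called under TETi76 in K01 numbered 15, 26 after quantile normalization (25 higher, 1 lower) and 9 to 11 with 1 library left out (9 without the second DMSO library). For K18 against K01 they numbered 10, 6 after quantile normalization and 5 to 7 with 1 left out (6 without the first and 5 without the second K18 library). For TETi76 with ascorbate against ascorbate they numbered 25, and 16 to 19 with 1 left out (16 without the second ascorbate library). In SIGM5 the 0 became 3 with no filter on low counts, 1 with the replicate block, 4 with the replicate block crossed, an alternative chosen after seeing the data, and 0 to 4 with 1 left out (4 without the first DMSO, 3 without the second DMSO and 1 without the second TETi76 library). The difference between lines had 4 calls and 0 to 7 with 1 left out, also chosen after seeing the data. It had 2 without the first K01 DMSO, the second K01 TETi76 or the second SIGM5 TETi76 library, 1 without the second K01 DMSO or the first K01 TETi76 library, 0 without the first SIGM5 TETi76 library and 7 without the second SIGM5 DMSO library. Ascorbate, ascorbate added to TETi76, and the interaction stayed at 0 in each alternative run.

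The labels do not say what a replicate number shares. Differences between replicates correlated at -0.02 to 0.05 between K562 groups and at -0.24 in SIGM5, and the replicate block left the K562 counts at 15, 10 and 25. PSMB8 in SIGM5 was called with the block (adjusted p = 0.000267), and the PSMB6 difference between lines lost its call (0.54, adjusted p = 0.0798).

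Of the values of single named genes, 310 kept direction and side of the threshold, 47 lost a call, 11 gained one and 3 changed sign: with 1 library left out, PSMB10 in K01 ran from -0.46 to 0.045 (above 0 without the second DMSO library), PSMB9 in K01 from -0.17 to 0.46 (below 0 without the first TETi76 library) and PSMB6 in SIGM5 from -0.0083 to 0.17 (below 0 without the second DMSO library). The causes were not tested. Below about 1 FPKM, as for PSMB8 and PSMB9 in K562, values rest on few reads.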
